A study of Homo sapiens with 12 samples.

Results

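The ATP-binding cassette (ABC) transporter genes were followed in RNAseq of SKBR-3 cells, an established breast cancer cell line with amplified HER2 and little estrogen receptor. The members were all genes whose symbol consists of ABC, a subfamily letter from A to G and a number, which gave 46 of the 20531 genes listed in the data. Of these, 33 reached 10 counts in 1 or more of the 12 libraries and were tested, and the other 13 were too low to test. Subfamily A held 12 members (8 tested), B held 9 (6 tested), C held 12 (9 tested), D held 4 (3 tested), E held 1, which was tested, F held 3, all tested, and G held 5 (3 tested).

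All 12 samples were SKBR-3 cells transfected with an siRNA pool and then given drug or vehicle, with 3 replicates in each of 4 groups. The first group received a non-targeting (NT) siRNA pool and DMSO, and the second the NT siRNA pool and 300 nM lapatinib, which blocks the kinase activity of HER2 and EGFR. The third received a FOXA1 siRNA pool and DMSO, and the last the FOXA1 siRNA pool and 300 nM lapatinib. Drug or DMSO was present for 24 h in every group. FOXA1 is a forkhead transcription factor that opens chromatin for hormone receptors in luminal breast cells. The study asked how FOXA1 depletion alters the adaptive response of these cells to lapatinib, and the groups allow lapatinib to be compared with DMSO under each siRNA and FOXA1 siRNA with NT siRNA under each drug. No untransfected sample is among the groups, and 1 cell line with 1 siRNA pool per target limits what they can stand for.

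ABC proteins carry a conserved nucleotide-binding domain that hydrolyses ATP. Most are membrane pumps, and in tumours the family is best known for the export of drugs and drug conjugates by P-glycoprotein (ABCB1), the multidrug resistance proteins of subfamily C and the breast cancer resistance protein (ABCG2). Other members move cholesterol and phospholipids, peptides, heme precursors or fatty acids across membranes of the cell surface, lysosome, mitochondrion or peroxisome, while the proteins of subfamilies E and F have no membrane domain and act on ribosomes and translation.

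The summed expected counts of the libraries lay between 25749578 and 32271850 (median 30542430), and no pair of replicates agreed within sampling noise. FOXA1 had 8504 ± 235 and 12670 ± 504 normalized counts (mean ± SD, n = 3) with NT siRNA in DMSO and in lapatinib, and 1362 ± 202 and 1971 ± 378 with FOXA1 siRNA. Normalized counts here are counts divided by library sizes scaled with the TMM method and brought to their mean depth. The luminal and HER2 markers ERBB2, GRB7, KRT8, KRT18, KRT19 and EPCAM had at least 176 TPM in every library, and ESR1 stayed at or below 0.98 TPM. Of 6 markers of other cell types, PTPRC, PECAM1, COL1A2 and KRT14 stayed at or below 11 counts, and COL1A1 had 240 to 546. KRT5, a basal keratin, had 7.54 ± 4.48 and 2.75 ± 1.42 normalized counts in the NT siRNA groups and 46.6 ± 8.40 and 32.2 ± 4.68 in the FOXA1 siRNA groups, in DMSO and lapatinib. The 6 markers summed to 478 to 532 and 274 to 385 normalized counts in the NT siRNA groups, with PECAM1 and KRT14 at 0 throughout the second, and to 436 to 561 and 373 to 413 in the FOXA1 siRNA groups. Most of each sum was COL1A1. Without it, the sums were 5.75 to 15.8 and 3.57 to 6.96 with NT siRNA, and 50.4 to 72.9 and 33.6 to 55.8 with FOXA1 siRNA. Because the libraries are of bulk cells, fewer cells of a kind and less RNA per cell cannot be told apart.

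Per length, soluble members were among the most abundant. ABCF1, which acts in translation initiation, was first in the NT siRNA and DMSO group at 137 ± 2.37 TPM (mean ± SD, n = 3). Other abundant members were ABCD3, the abundant peroxisomal membrane protein PMP70, at 95 ± 1.30, ABCE1, the ribosome recycling factor, at 92.1 ± 1.26, and ABCC5, an exporter of cyclic nucleotides, at 89.4 ± 11.8. The means of ABCD3 and ABCE1, and that of ABCF2 at 78.2 ± 2.01 TPM, lay within 1 SD of ABCC5. The order changed with treatment: ABCC5 at 110 ± 10.5 stood beside ABCF1 at 108 ± 4.14 with NT siRNA and lapatinib, and their spreads overlapped. With FOXA1 siRNA, ABCF1 led again, at 133 ± 4.21 TPM in DMSO and 110 ± 5.67 in lapatinib.

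Summed over the 46 members, the family took 983.7 to 1022 TPM with NT siRNA and DMSO, 944.8 to 962.3 with NT siRNA and lapatinib, 998.4 to 999.3 with FOXA1 siRNA and DMSO, and 943.9 to 955.2 with FOXA1 siRNA and lapatinib. The total of all listed genes was also lower with lapatinib, at 896833 to 914469 TPM against 922405 to 939340 in DMSO. Within the family, subfamily C divided by siRNA. It summed to 161.4 ± 9.80 TPM with NT siRNA and DMSO and to 186.2 ± 10.8 with NT siRNA and lapatinib. Under FOXA1 siRNA the sum was 115.9 ± 7.17 in DMSO and 108.0 ± 3.27 in lapatinib, so that every library with FOXA1 siRNA lay below every library with NT siRNA. Subfamily F summed to 265.0 ± 4.13 and 195.2 ± 1.83 TPM with NT siRNA, and to 277.3 ± 2.4 and 221.6 ± 6.95 TPM with FOXA1 siRNA, in DMSO and lapatinib. The largest parts of these sums came from ABCC5 and ABCC1 in subfamily C and ABCF1 in subfamily F, but other members shared in the differences. With NT siRNA, ABCF2 had 78.2 TPM in DMSO and 43.6 in lapatinib, beside 137 and 108 for ABCF1. In lapatinib, ABCC11 had 22.9 TPM with NT siRNA and 5.14 with FOXA1 siRNA, beside 38.7 and 31.3 for ABCC1.

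**Figure D1:**
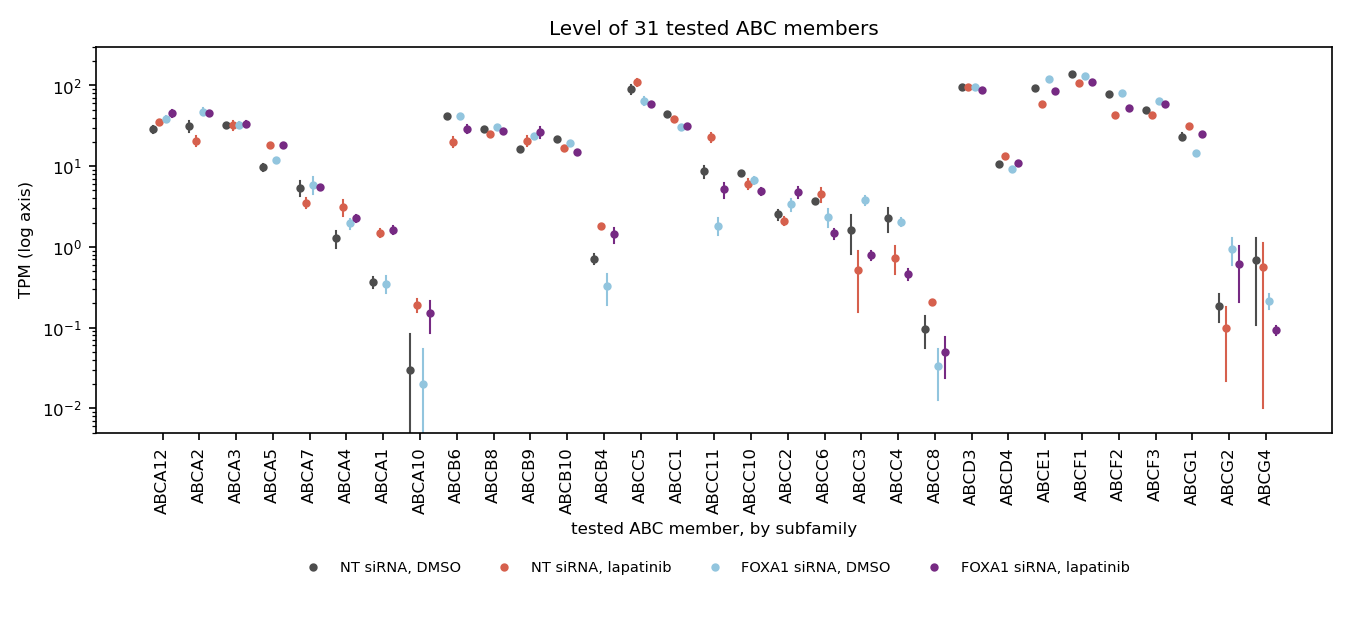
TPM (log axis) of 31 of the 33 tested ABC members in each of the 4 groups, ordered by subfamily and by level within it. Points are means and lines are SDs of 3 libraries, cut at the lower edge of the axis. ABCF1, ABCD3, ABCE1 and ABCC5 have means between 59.1 and 137 TPM, while those of ABCA10, ABCC8, ABCG2 and ABCG4 are below 1 TPM.

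Lapatinib moved most of the tested members. With NT siRNA, 13 of the 33 (39.4%) were higher and 11 (33.3%) lower at a Benjamini-Hochberg adjusted p under 0.05 by edgeR's quasi-likelihood test, beside 29.9% and 28.6% of all 14011 genes tested. When the absolute log2 fold change also had to be 1 or more, 7 members (21.2%) were higher and 3 (9.09%) lower, beside 6.62% and 7.07% of all genes. With FOXA1 siRNA, 11 (33.3%) were higher and 9 (27.3%) lower, beside 28.5% and 28.7% of all genes, and 4 (12.1%) and 3 (9.09%) also passed the fold limit, beside 4.96% and 5.13%. The members had a median log2 fold change of 0.08 and -0.02 under NT and FOXA1 siRNA, against 0.03 and 0.01 over all genes. The 7 and the 4 that rose past the fold limit stood at larger shares than all genes, a difference that was not tested, and they include the scarce ABCA10 and, with NT siRNA, ABCC8.

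FOXA1 siRNA moved members in both directions. In DMSO, 9 of the 33 (27.3%) were higher and 9 (27.3%) lower, beside 21.0% and 21.0% of all genes, and 2 and 2 (6.06% each) passed the fold limit, beside 4.00% and 2.80%. In lapatinib, 10 (30.3%) were higher and 9 (27.3%) lower, beside 22.2% and 21.8% of all genes, and 3 (9.09%) and 4 (12.1%) passed the fold limit, beside 4.48% and 3.90%. Fits blocked on replicate number called more members, 16 higher and 13 lower for lapatinib with NT siRNA, 13 and 12 with FOXA1 siRNA, 13 and 11 for FOXA1 siRNA in DMSO and 13 and 15 in lapatinib. The members ABCA10, ABCC8, ABCG2 and ABCG4 reached 10 counts only in libraries of some groups, so a change of theirs was partly fixed by the filter. Without these 4, the counts were 11 higher and 11 lower of 29 for lapatinib with NT siRNA, 10 and 8 with FOXA1 siRNA, 8 and 9 for FOXA1 siRNA in DMSO and 9 and 7 in lapatinib. Over the 4 comparisons, 7 members were called in every comparison, 9 in 3 of them, 12 in 2, 2 in 1 and 3 in none. The last 3, ABCA3, ABCB8 and ABCD3, each passed in at least 1 blocked fit. Neither this tally nor the counts of the blocked fits were made over all genes, so they describe the members alone.

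**Figure D2:**
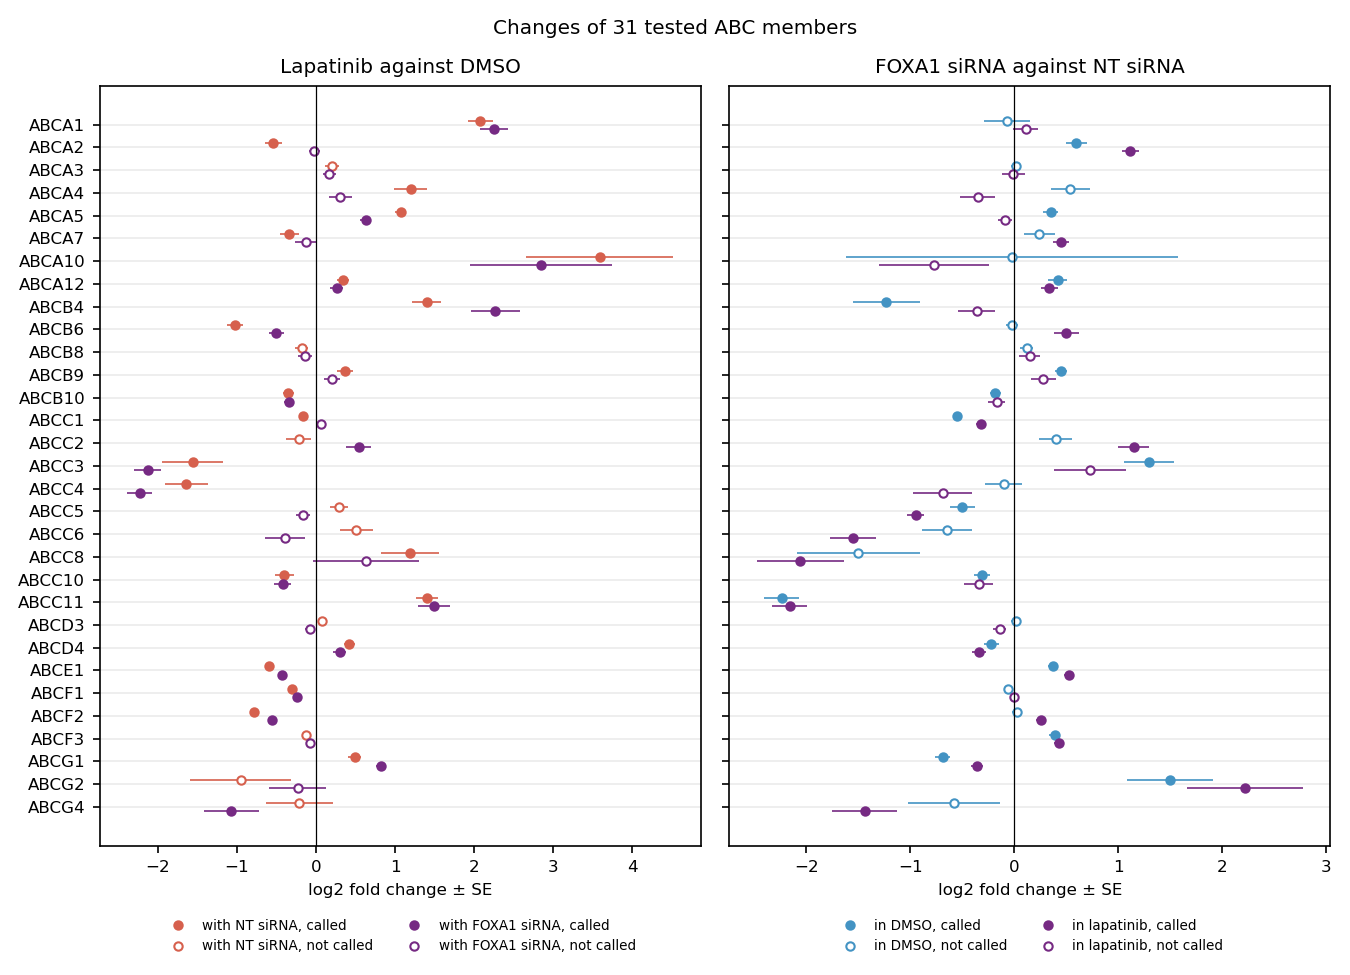
Log2 fold changes (± SE, from fits of 6 libraries each) of 31 of the 33 tested ABC members after lapatinib under each siRNA (left) and after FOXA1 siRNA under each drug (right). Filled points are called at an adjusted p under 0.05 and open points are not. ABCC11 lies far to the right on the left side and far to the left on the right side, at 1.41 and -2.24 in the first comparison of each.

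Among the drug and conjugate exporters, ABCC11 rose with lapatinib and fell with FOXA1 siRNA. ABCC11, or MRP8, exports conjugates and cyclic nucleotides and is known from apocrine glands, and lies at chr16:48164819-48247539 (GRCh38.p14). It had 489, 571 and 699 normalized counts in the 3 libraries with NT siRNA and DMSO, 1449, 1405 and 1745 with NT siRNA and lapatinib, 103, 126 and 141 with FOXA1 siRNA and DMSO and 258, 350 and 425 with FOXA1 siRNA and lapatinib. No 2 of the groups overlapped, and the FOXA1-depleted cells in lapatinib stayed below the control cells in DMSO. The log2 fold change after lapatinib was 1.41 ± 0.14 (adjusted p = 4.99e-05) with NT siRNA, and 1.49 ± 0.20 (adjusted p = 0.000317) with FOXA1 siRNA. After FOXA1 siRNA it was -2.24 ± 0.17 (adjusted p = 4.36e-05) in DMSO and -2.16 ± 0.17 (adjusted p = 3.66e-05) in lapatinib. Its responses to lapatinib differed by only 0.09 ± 0.26 between the siRNAs (adjusted p = 0.892).

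ABCC3 and ABCC4 were the exporters that fell most with lapatinib. ABCC3, or MRP3, exports glucuronides and bile acids. It had 85.7, 152 and 83.4 normalized counts with NT siRNA and DMSO, 22.6, 57.6 and 25.6 with NT siRNA and lapatinib, 258, 298 and 229 with FOXA1 siRNA and DMSO and 53.7, 72.0 and 52.2 with FOXA1 siRNA and lapatinib. Lapatinib lowered it under each siRNA without overlap of the groups, with log2 fold changes of -1.56 ± 0.39 (adjusted p = 0.00826) with NT siRNA and -2.13 ± 0.17 (adjusted p = 2.08e-05) with FOXA1 siRNA. In DMSO, ABCC3 was the 1 member of subfamily C called higher after FOXA1 siRNA (1.30 ± 0.24, adjusted p = 0.00316), beside ABCC2 in the blocked fit. In lapatinib the groups overlapped, at 0.73 ± 0.35 (adjusted p = 0.125), with an adjusted p of 0.00937 when the replicate number was a block.

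ABCC4, or MRP4, exports cyclic AMP and prostaglandins. Its normalized counts were 168, 220 and 139 with NT siRNA and DMSO, 65.4, 66.6 and 34.9 with NT siRNA and lapatinib, 174, 163 and 151 with FOXA1 siRNA and DMSO and 36.1, 38.4 and 28.6 with FOXA1 siRNA and lapatinib. All 6 lapatinib libraries were below all 6 DMSO libraries. The log2 fold change was -1.64 ± 0.27 (adjusted p = 0.000992) with NT siRNA and -2.23 ± 0.16 (adjusted p = 1.34e-05) with FOXA1 siRNA. FOXA1 siRNA changed it by -0.10 ± 0.18 (adjusted p = 0.666) in DMSO and -0.69 ± 0.28 (adjusted p = 0.0789) in lapatinib, the second with an adjusted p of 0.0105 in the blocked fit.

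ABCG2 was the exporter that rose most with FOXA1 siRNA, from a low level. It is the breast cancer resistance protein, an exporter of several chemotherapy drugs and of urate, and lies at chr4:88090264-88231626. The raw counts were 19, 7 and 11 with NT siRNA and DMSO, 8, 1 and 8 with NT siRNA and lapatinib, 28, 28 and 51 with FOXA1 siRNA and DMSO and 27, 19 and 40 with FOXA1 siRNA and lapatinib, or 18.7, 6.94 and 10.5, 9.51, 0.994 and 8.20, 28.0, 26.0 and 48.5 and 27.9, 18.2 and 40.9 as normalized counts. Under each drug the libraries with FOXA1 siRNA were above those with NT siRNA, while the lapatinib and DMSO groups overlapped. FOXA1 siRNA raised it by 1.50 ± 0.41 (adjusted p = 0.0193) in DMSO and 2.22 ± 0.56 (adjusted p = 0.0129) in lapatinib. The first of these calls was lost without FOXA1 siRNA DMSO replicate 3 (log2 fold change 1.16) or without NT siRNA DMSO replicate 3 (1.42). The change after lapatinib, -0.95 ± 0.64 (adjusted p = 0.233) with NT siRNA and -0.23 ± 0.36 (adjusted p = 0.599) with FOXA1 siRNA, was not called. KRT5, whose values are given above, was likewise higher in the FOXA1 siRNA groups, and its part in this difference was not tested.

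The bases upstream of ABCC11 and ABCC5, which fell with FOXA1 siRNA under each drug, and of ABCG2 and ABCE1, which rose under each, are shown because these members moved in opposite directions when a forkhead factor was depleted. Each run is the 250 bases before the annotated start in the RefSeq table for GRCh38.p14, written 5′ to 3′ on the strand of the gene, with the forkhead core TGTTTAC or TGTTGAC and its reverse complements GTAAACA and GTCAACA in capitals where it occurs. The coordinates are chr16:48247540-48247789 on the minus strand for ABCC11, chr3:184017885-184018134 on the minus strand for ABCC5, chr4:88231627-88231876 on the minus strand for ABCG2 and chr4:145098061-145098310 on the plus strand for ABCE1.
ABCC11: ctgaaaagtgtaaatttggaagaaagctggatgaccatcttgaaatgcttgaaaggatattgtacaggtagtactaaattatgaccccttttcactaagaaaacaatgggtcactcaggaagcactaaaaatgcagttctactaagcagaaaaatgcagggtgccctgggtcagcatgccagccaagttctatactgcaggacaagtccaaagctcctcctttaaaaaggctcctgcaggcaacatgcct
ABCC5: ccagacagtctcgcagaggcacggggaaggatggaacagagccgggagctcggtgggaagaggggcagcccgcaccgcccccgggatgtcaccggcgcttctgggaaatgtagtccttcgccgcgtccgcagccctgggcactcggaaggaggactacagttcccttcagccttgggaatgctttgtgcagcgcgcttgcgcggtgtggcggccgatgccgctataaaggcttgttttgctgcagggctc
ABCG2: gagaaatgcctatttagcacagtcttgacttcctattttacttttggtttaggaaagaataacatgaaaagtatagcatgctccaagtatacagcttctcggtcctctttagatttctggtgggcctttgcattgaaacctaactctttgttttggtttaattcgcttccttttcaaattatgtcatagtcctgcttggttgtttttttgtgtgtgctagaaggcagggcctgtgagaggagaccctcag
ABCE1: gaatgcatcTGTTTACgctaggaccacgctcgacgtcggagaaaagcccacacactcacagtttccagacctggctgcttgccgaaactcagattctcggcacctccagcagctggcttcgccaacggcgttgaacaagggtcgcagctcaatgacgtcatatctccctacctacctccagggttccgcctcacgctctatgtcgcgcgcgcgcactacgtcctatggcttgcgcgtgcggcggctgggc
Of these 4, the run of ABCE1 held the core, once, beginning 241 bases before the start. ABCE1 was not the member with the next largest increase after ABCG2. ABCA2 rose more under each drug (0.60 and 1.12, against 0.37 and 0.53 for ABCE1), and ABCF3 also rose under each. The runs of ABCA2 and ABCF3, not shown, held no match. Among all 35116 promoters in the table, 1699 (4.84%) held it in the same window, as did 5 of the 53 listed for members (9.43%), at ABCA6, ABCB11, ABCC2, ABCE1 and ABCF1. A start was listed for 35 of the 46 members, and for a member with several the first listed is shown. A match describes these letters alone. The paper reports FOXA1 ChIPseq in SKBR-3 cells, and binding at these bases was not examined here. The runs of ABCC11 and ABCG2 had a GC content of 42.8% and 40.0%, and those of ABCC5 and ABCE1 64.8% and 60.0%, against a median of 58.0% (quartiles 46.4% and 68.0%) over all promoters. The 25 tested members with a start had a median GC content of 65.2%, and the 10 members too low to test 46.2%.

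ABCC2, or MRP2, the exporter of conjugates on the apical membrane of hepatocytes, rose with FOXA1 siRNA in lapatinib. Its normalized counts were 204, 174 and 239 with NT siRNA and DMSO, 172, 151 and 199 with NT siRNA and lapatinib, 269, 225 and 318 with FOXA1 siRNA and DMSO and 424, 319 and 428 with FOXA1 siRNA and lapatinib. The last group was above all others. FOXA1 siRNA raised it by 1.15 ± 0.15 (adjusted p = 0.000541) in lapatinib, and changed it by 0.40 ± 0.16 (adjusted p = 0.0758) in DMSO, where the blocked fit gave an adjusted p of 0.00156. Lapatinib raised it with FOXA1 siRNA (0.54 ± 0.16, adjusted p = 0.019), a call lost without FOXA1 siRNA DMSO replicate 1 (0.53) or 2 (0.42) or FOXA1 siRNA lapatinib replicate 1 (0.46) or 3 (0.48). With NT siRNA the change was -0.22 ± 0.16 (adjusted p = 0.259).

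ABCC1, or MRP1, the exporter of glutathione conjugates, had 4611, 4643 and 4427 normalized counts with NT siRNA and DMSO, 3962, 4143 and 3882 with NT siRNA and lapatinib, 3111, 3145 and 3048 with FOXA1 siRNA and DMSO and 3328, 3232 and 3084 with FOXA1 siRNA and lapatinib. All libraries with FOXA1 siRNA were below all libraries with NT siRNA. FOXA1 siRNA lowered it under each drug, with log2 fold changes of -0.55 ± 0.04 (adjusted p = 5.16e-05) in DMSO and -0.32 ± 0.05 (adjusted p = 0.00111) in lapatinib. The decrease after lapatinib with NT siRNA, -0.17 ± 0.05 (adjusted p = 0.0187), was small, and the call was lost without NT siRNA DMSO replicate 1 (-0.16) or NT siRNA lapatinib replicate 1 (-0.17) or 3 (-0.15). ABCC5, or MRP5, was the most abundant exporter of the list in every group, and FOXA1 siRNA lowered it from 7622 ± 1180 to 5342 ± 622 normalized counts in DMSO (-0.50 ± 0.12, adjusted p = 0.0103) and from 9180 ± 921 to 4767 ± 328 in lapatinib (-0.95 ± 0.08, adjusted p = 6.19e-05). After lapatinib it changed by 0.29 ± 0.11 (adjusted p = 0.0527) with NT siRNA and -0.16 ± 0.09 (adjusted p = 0.157) with FOXA1 siRNA, neither called, with adjusted p = 0.000393 and 0.00696 in the blocked fits. ABCC10, or MRP7, an exporter of taxanes, fell with lapatinib under each siRNA (log2 fold change -0.40 ± 0.12 and -0.42 ± 0.11) and with FOXA1 siRNA in DMSO (-0.31 ± 0.08). In lapatinib its change was -0.34 ± 0.14 (adjusted p = 0.0786), and 0.00181 was the adjusted p in the blocked fit. The call with NT siRNA was lost without NT siRNA DMSO replicate 1 (-0.39), and that after FOXA1 siRNA without NT siRNA DMSO replicate 1 (-0.30) or 3 (-0.31).

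ABCB1, which encodes P-glycoprotein, was below the limit for testing. Its raw counts were 0, 0 and 2 with NT siRNA and DMSO, 0, 1 and 0 with NT siRNA and lapatinib, 2, 0 and 4 with FOXA1 siRNA and DMSO and 4, 1 and 3 with FOXA1 siRNA and lapatinib. The groups overlapped, and a count of 0 in these libraries allows a level of up to 0.0930 to 0.117 CPM, for counting error only. Of the 9 genes in the drug and conjugate efflux list, 8 were thus tested. Lapatinib raised 1 (12.5%) and lowered 4 (50.0%) of the 8 with NT siRNA, beside 29.9% and 28.6% of all genes, and raised 2 (25%) and lowered 3 (37.5%) with FOXA1 siRNA, beside 28.5% and 28.7%. FOXA1 siRNA raised 2 (25%) and lowered 4 (50.0%) in DMSO, beside 21.0% and 21.0% of all genes, and raised 2 (25%) and lowered 3 (37.5%) in lapatinib, beside 22.2% and 21.8%. The list's median log2 fold change lay between -0.33 and -0.20 in the 4 comparisons, against -0.01 to 0.03 over all genes.

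**Figure D3:**
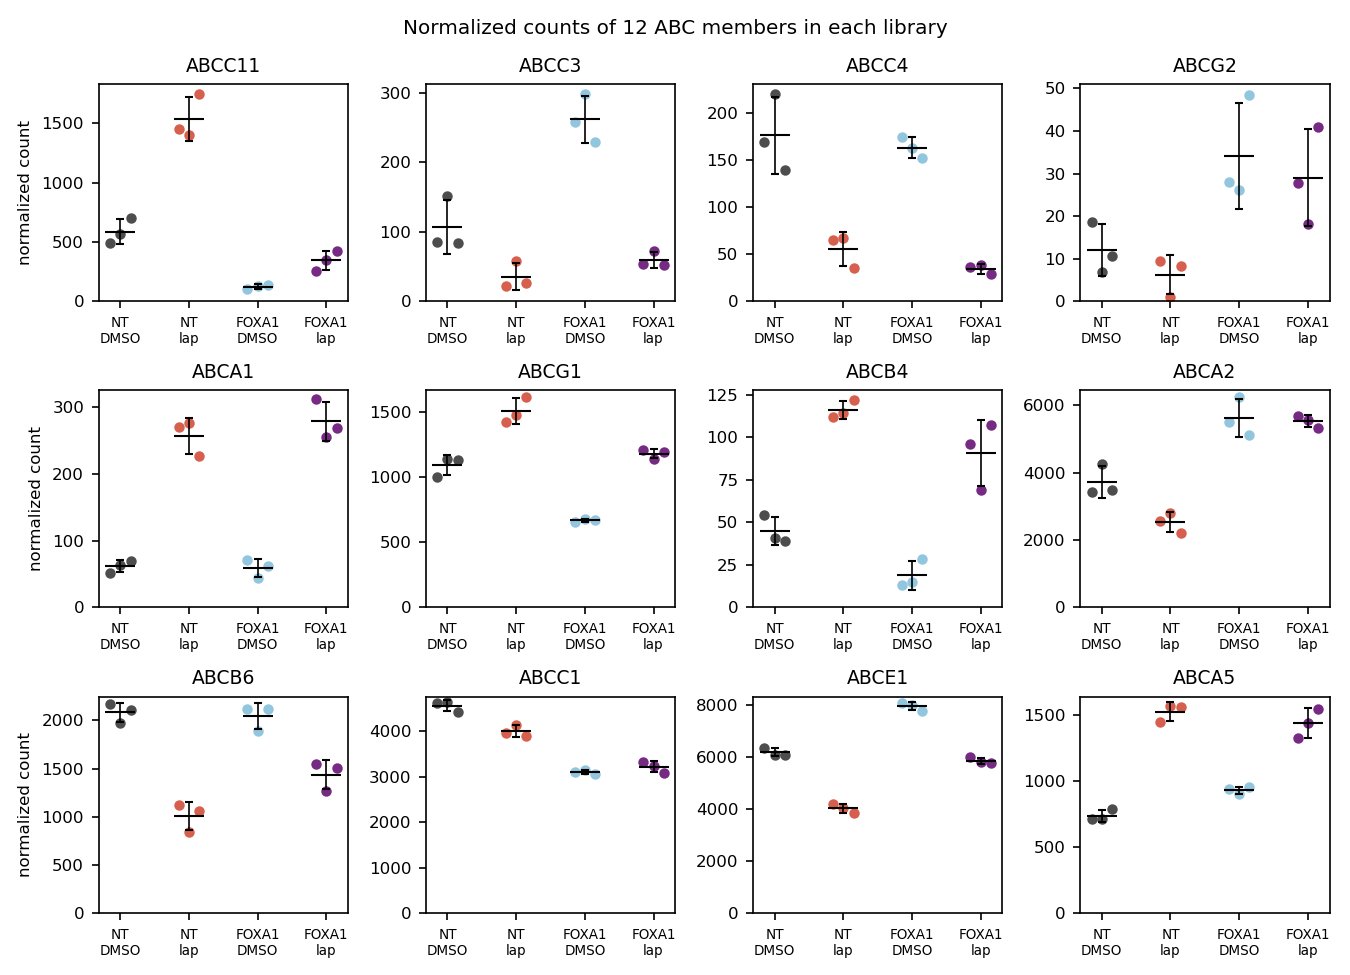
Normalized counts (linear axes from 0) of 12 ABC members in each of the 12 libraries, by siRNA and drug (lap, lapatinib). Colored points are the libraries, black bars the mean and SD of 3. ABCC4 and ABCA1 separate by drug, ABCC1 by siRNA, and ABCC11 by both. ABCG2 separates by siRNA within each drug.

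ABCA1 and ABCG1, both exporters of sterols, rose with lapatinib. ABCA1, which loads cholesterol and phospholipid onto apolipoprotein A-I, had 52.2, 63.4 and 70.0 normalized counts with NT siRNA and DMSO, 270, 276 and 227 with NT siRNA and lapatinib, 70.9, 43.7 and 61.9 with FOXA1 siRNA and DMSO and 312, 256 and 269 with FOXA1 siRNA and lapatinib. Every lapatinib library was above every DMSO library. This is a 4.22-fold and a 4.77-fold increase (2.08 ± 0.16, adjusted p = 1.42e-05, and 2.25 ± 0.18, adjusted p = 2.25e-05). The change after FOXA1 siRNA was -0.07 ± 0.22 (adjusted p = 0.832) in DMSO and 0.11 ± 0.12 (adjusted p = 0.51) in lapatinib. Intervals from the SE by a normal approximation, nominally 95%, were -0.50 to 0.36 and -0.13 to 0.34 on the log2 scale. With 3 libraries per group such intervals are too narrow. Per length ABCA1 was a minor member throughout, at 0.367 ± 0.0586 and 1.50 ± 0.178 TPM with NT siRNA in DMSO and lapatinib.

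ABCG1, which passes sterols on to lipoprotein particles, had 1002, 1138 and 1131 normalized counts with NT siRNA and DMSO, 1424, 1481 and 1618 with NT siRNA and lapatinib, 658, 682 and 671 with FOXA1 siRNA and DMSO and 1206, 1141 and 1194 with FOXA1 siRNA and lapatinib. It was lowest in FOXA1-depleted cells in DMSO and highest in control cells in lapatinib, and the compared groups did not overlap. Lapatinib raised it by 0.49 ± 0.08 (adjusted p = 0.000791) with NT siRNA and 0.82 ± 0.06 (adjusted p = 1.12e-05) with FOXA1 siRNA. After FOXA1 siRNA the log2 fold change was -0.69 ± 0.07 (adjusted p = 0.000201) in DMSO and -0.36 ± 0.06 (adjusted p = 0.00233) in lapatinib.

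ABCB4, which moves phosphatidylcholine into bile, rose with lapatinib from a low level. Its normalized counts were 54.2, 40.6 and 39.3 with NT siRNA and DMSO, 112, 114 and 122 with NT siRNA and lapatinib, 13.0, 14.9 and 28.5 with FOXA1 siRNA and DMSO and 96.1, 69.2 and 107 with FOXA1 siRNA and lapatinib. All lapatinib libraries were above all DMSO libraries, and under each drug the libraries with FOXA1 siRNA were below those with NT siRNA. The increase after lapatinib was 1.40 ± 0.18 (adjusted p = 0.000217) with NT siRNA and 2.27 ± 0.31 (adjusted p = 0.000362) with FOXA1 siRNA. The decrease after FOXA1 siRNA was -1.23 ± 0.32 (adjusted p = 0.0163) in DMSO, a call lost without NT siRNA DMSO replicate 1 (-1.07) or FOXA1 siRNA DMSO replicate 1 (-1.03). In lapatinib it was -0.36 ± 0.18 (adjusted p = 0.134), not called, with an adjusted p of 0.0376 in the blocked fit. ABCB1, the neighbouring gene 26989 bases away on chromosome 7, stayed at 4 counts or fewer.

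ABCA2, a lipid transporter of endosomes and lysosomes, had 3438, 4273 and 3482 normalized counts with NT siRNA and DMSO, 2575, 2816 and 2209 with NT siRNA and lapatinib, 5514, 6242 and 5111 with FOXA1 siRNA and DMSO and 5685, 5572 and 5338 with FOXA1 siRNA and lapatinib. It was lower in lapatinib in the control cells alone, and all libraries with FOXA1 siRNA were above all libraries with NT siRNA. Lapatinib changed it by -0.54 ± 0.11 (adjusted p = 0.00353) with NT siRNA and by -0.02 ± 0.07 (adjusted p = 0.859) with FOXA1 siRNA. FOXA1 siRNA raised it by 0.60 ± 0.10 (adjusted p = 0.00255) in DMSO and 1.12 ± 0.08 (adjusted p = 3.01e-05) in lapatinib.

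ABCA5, a lysosomal member, had 710, 710 and 787 normalized counts with NT siRNA and DMSO, 1443, 1566 and 1561 with NT siRNA and lapatinib, 936, 902 and 954 with FOXA1 siRNA and DMSO and 1324, 1441 and 1547 with FOXA1 siRNA and lapatinib. Every lapatinib library was above every DMSO library. The increase after lapatinib was 1.07 ± 0.07 (adjusted p = 7.19e-06) with NT siRNA and 0.63 ± 0.07 (adjusted p = 0.000103) with FOXA1 siRNA. FOXA1 siRNA raised it in DMSO (0.35 ± 0.07, adjusted p = 0.00369) and changed it by -0.09 ± 0.07 (adjusted p = 0.319) in lapatinib. ABCA12, which carries glucosylceramide into the lamellar granules of the epidermis and was among the more abundant members of its subfamily, rose in all 4 comparisons, by 0.34 ± 0.08 and 0.26 ± 0.08 when lapatinib was given and by 0.42 ± 0.09 and 0.34 ± 0.08 when FOXA1 was depleted. Its call after lapatinib with FOXA1 siRNA was lost without FOXA1 siRNA DMSO replicate 2 (0.20) or FOXA1 siRNA lapatinib replicate 1 (0.19) or 3 (0.25). ABCA7, a phospholipid transporter, fell with lapatinib with NT siRNA (-0.34 ± 0.12, adjusted p = 0.0343), a call lost without NT siRNA DMSO replicate 1 (-0.38) or 2 (-0.26) or NT siRNA lapatinib replicate 1 (-0.31) or 3 (-0.35), and rose with FOXA1 siRNA in lapatinib (0.45 ± 0.08, adjusted p = 0.00328), as it did in DMSO in the blocked fit (adjusted p = 0.0153). ABCA3, the surfactant lipid transporter, was not called in any comparison, with log2 fold changes between -0.01 and 0.20, and in the blocked fits lapatinib with NT siRNA alone passed (adjusted p = 0.0264).

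Of the 11 genes in the lipid and sterol list, 9 were tested, since ABCG5 and ABCG8, the paired exporters of plant sterols, had at most 1 count. Lapatinib raised 5 (55.6%) and lowered 2 (22.2%) of the 9 with NT siRNA, beside 29.9% and 28.6% of all genes, and raised 5 (55.6%) and lowered 1 (11.1%) with FOXA1 siRNA, beside 28.5% and 28.7%. The 5 were ABCA1, ABCA5, ABCA12, ABCB4 and ABCG1 each time. The 1 lowered with FOXA1 siRNA was ABCG4. FOXA1 siRNA raised 3 (33.3%) and lowered 2 (22.2%) under each drug, beside 21.0% and 21.0% of all genes in DMSO and 22.2% and 21.8% in lapatinib. The median log2 fold change of the list was 0.34 and 0.26 after lapatinib with NT and FOXA1 siRNA, against 0.03 and 0.01 over all genes, and 0.02 and -0.01 after FOXA1 siRNA in DMSO and lapatinib.

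ABCA4, the retinoid transporter of photoreceptors, had 128, 184 and 126 normalized counts with NT siRNA and DMSO, 305, 418 and 268 with NT siRNA and lapatinib, 212, 245 and 177 with FOXA1 siRNA and DMSO and 236, 280 and 264 with FOXA1 siRNA and lapatinib. Only the control cells in lapatinib stood clear of their own DMSO group. The log2 fold change after lapatinib was 1.20 ± 0.21 (adjusted p = 0.00137) with NT siRNA and 0.31 ± 0.14 (adjusted p = 0.0812) with FOXA1 siRNA, and after FOXA1 siRNA 0.54 ± 0.19 (adjusted p = 0.0513) in DMSO and -0.35 ± 0.17 (adjusted p = 0.119) in lapatinib. With the block, the last 3 had adjusted p = 0.0235, 0.000906 and 0.0127.

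ABCA10 had raw counts of 2, 0 and 0 with NT siRNA and DMSO, 6, 15 and 5 with NT siRNA and lapatinib, 0, 2 and 0 with FOXA1 siRNA and DMSO and 3, 6 and 7 with FOXA1 siRNA and lapatinib. The lapatinib and DMSO groups did not overlap. ABCA10 entered the tests through 1 library alone, with NT siRNA and lapatinib (15 counts), so its rise with NT siRNA was partly fixed by the filter. The ratio and the call for that comparison carry this limit and only describe these libraries. Summed over 3 libraries, lapatinib against DMSO was 26 against 2 counts with NT siRNA, a ratio of 14.1 (95% interval 3.54 to 123, for counting error only), and 16 against 2 with FOXA1 siRNA, a ratio of 8.38 (1.97 to 75.1). The fitted changes were called (adjusted p = 0.00985 and 0.0247), the second not by DESeq2 (0.0745) nor without FOXA1 siRNA DMSO replicate 1 (log2 fold change 2.37) or 3 (2.34) or FOXA1 siRNA lapatinib replicate 2 (2.80) or 3 (2.61). In the RefSeq annotation ABCA10 overlaps its neighbour ABCA5 by 538 bases, and the sources used here do not give whether reads were counted by strand.

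ABCC8, the sulfonylurea receptor of potassium channels, had raw counts of 4, 10 and 9 with NT siRNA and DMSO, 14, 17 and 17 with NT siRNA and lapatinib, 1, 3 and 4 with FOXA1 siRNA and DMSO and 3, 7 and 2 with FOXA1 siRNA and lapatinib. The control cells in lapatinib were above all other groups. Only libraries with NT siRNA reached 10 counts, so a lower level with FOXA1 siRNA was partly fixed by the filter. Its fitted change was 1.19 ± 0.37 (adjusted p = 0.0242) for lapatinib with NT siRNA, a call lost by DESeq2 (0.0967) and without NT siRNA DMSO replicate 1 (log2 fold change 0.88) or NT siRNA lapatinib replicate 1 (1.20) or 3 (1.17), and -2.06 ± 0.42 (adjusted p = 0.00464) for FOXA1 siRNA in lapatinib. FOXA1 siRNA in DMSO was not called, but passed in the blocked fit (adjusted p = 0.0401). ABCC6, a hepatic exporter that leads to ATP release, had 58.1, 67.4 and 50.8 normalized counts with NT siRNA and DMSO, 68.9, 103 and 73.8 with NT siRNA and lapatinib, 36.0, 47.4 and 27.6 with FOXA1 siRNA and DMSO and 25.8, 31.7 and 26.6 with FOXA1 siRNA and lapatinib. The libraries with FOXA1 siRNA were below those with NT siRNA under each drug, and the change in lapatinib was -1.55 ± 0.22 (adjusted p = 0.000775). The blocked fits also called FOXA1 siRNA in DMSO and lapatinib with NT siRNA (adjusted p = 0.00802 and 0.0277). ABCC6 shares near-identical sequence with the pseudogenes ABCC6P1 and ABCC6P2, listed with at most 8 and 27 counts, so the reads may have been split and its values are uncertain.

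ABCG4, a sterol transporter of the brain, had raw counts of 12, 31 and 13 with NT siRNA and DMSO, 12, 16 and 16 with NT siRNA and lapatinib, 12, 16 and 10 with FOXA1 siRNA and DMSO and 6, 5 and 6 with FOXA1 siRNA and lapatinib. The last group was below all others. It fell after lapatinib with FOXA1 siRNA (-1.07 ± 0.35, adjusted p = 0.029) and after FOXA1 siRNA in lapatinib (-1.44 ± 0.31, adjusted p = 0.00667), and DESeq2 called neither (adjusted p = 0.168 and 0.0552). The first call was lost in 5 of the 6 fits without 1 library, all but the one without FOXA1 siRNA DMSO replicate 3, at log2 fold changes of -1.08 and -0.89 without FOXA1 siRNA DMSO replicates 1 and 2 and -1.14, -0.95 and -1.11 without FOXA1 siRNA lapatinib replicates 1, 2 and 3.

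Among the mitochondrial members, ABCB6 and ABCB10 fell with lapatinib. ABCB6, a porphyrin transporter, had 2165, 1974 and 2105 normalized counts with NT siRNA and DMSO, 1117, 843 and 1063 with NT siRNA and lapatinib, 2120, 1884 and 2119 with FOXA1 siRNA and DMSO and 1544, 1262 and 1503 with FOXA1 siRNA and lapatinib. Every lapatinib library was below every DMSO library, and among the lapatinib libraries those with FOXA1 siRNA were the higher. The decrease after lapatinib was -1.02 ± 0.10 (adjusted p = 6.21e-05) with NT siRNA and -0.50 ± 0.09 (adjusted p = 0.0013) with FOXA1 siRNA. FOXA1 siRNA changed it by -0.02 ± 0.06 (adjusted p = 0.825) in DMSO and raised it by 0.50 ± 0.12 (adjusted p = 0.0101) in lapatinib. ABCB10, linked to heme synthesis, fell after lapatinib (log2 fold change -0.35 ± 0.07 with NT siRNA and -0.34 ± 0.06 with FOXA1 siRNA). It also fell after FOXA1 siRNA in DMSO (-0.18 ± 0.05, adjusted p = 0.031), but kept that call only without NT siRNA DMSO replicate 2, with log2 fold changes from -0.19 to -0.15 in the other 5 fits without 1 library. In lapatinib its change of -0.17 ± 0.08 was not called, with an adjusted p of 0.0239 in the blocked fit. ABCB8 was not called in any comparison, with log2 fold changes of -0.18 ± 0.08, -0.14 ± 0.09, 0.12 ± 0.06 and 0.15 ± 0.10 for lapatinib with NT and FOXA1 siRNA and FOXA1 siRNA in DMSO and lapatinib, but passed in each of the 4 blocked fits (adjusted p = 0.0204, 0.0225, 0.0399 and 0.0358). ABCB9, a peptide transporter of lysosomes, rose with lapatinib with NT siRNA (0.37 ± 0.10, adjusted p = 0.0133) and with FOXA1 siRNA in DMSO (0.45 ± 0.06, adjusted p = 0.000938), and its other 2 changes were not called but passed in the blocked fits (adjusted p = 0.00816 and 0.000156).

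In subfamily D, ABCD4 rose with lapatinib and fell with FOXA1 siRNA, and ABCD3 was not called. ABCD4, which with LMBRD1 exports cobalamin from lysosomes, had log2 fold changes of 0.42 ± 0.07 and 0.30 ± 0.08 under lapatinib, and of -0.22 ± 0.07 and -0.34 ± 0.07 under FOXA1 siRNA. Its call after FOXA1 siRNA in DMSO was lost in each of the 6 fits without 1 library, with log2 fold changes from -0.24 to -0.19. ABCD3 changed by between -0.14 and 0.08, and passed in the blocked fits of lapatinib with FOXA1 siRNA (adjusted p = 0.049) and of FOXA1 siRNA in lapatinib (0.00214). ABCD2 had at most 4 counts.

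Of the 4 soluble members of subfamilies E and F, 3 fell with lapatinib. ABCE1, needed to split ribosomes after termination, had 6379, 6110 and 6111 normalized counts with NT siRNA and DMSO, 4200, 4040 and 3879 with NT siRNA and lapatinib, 8113, 8006 and 7794 with FOXA1 siRNA and DMSO and 6006, 5823 and 5771 with FOXA1 siRNA and lapatinib. The compared groups did not overlap, and the last group lay below the first. After lapatinib the log2 fold change was -0.60 ± 0.05 (adjusted p = 2.54e-05) with NT siRNA and -0.43 ± 0.04 (adjusted p = 3.87e-05) with FOXA1 siRNA. FOXA1 siRNA raised it by 0.37 ± 0.04 (adjusted p = 0.000208) in DMSO and 0.53 ± 0.05 (adjusted p = 7.74e-05) in lapatinib. After lapatinib with NT and FOXA1 siRNA, ABCF1 had log2 fold changes of -0.30 ± 0.04 and -0.24 ± 0.04, and ABCF2 of -0.79 ± 0.05 and -0.56 ± 0.05. ABCF3, a relative of the yeast translation regulator GCN20, rose with FOXA1 siRNA by 0.39 ± 0.05 (adjusted p = 0.000464) in DMSO and 0.43 ± 0.05 (adjusted p = 0.000312) in lapatinib, and ABCF2 rose in lapatinib (0.26 ± 0.05, adjusted p = 0.00485). ABCF3 was called lower after lapatinib with NT siRNA in the blocked fit (adjusted p = 0.036). Thus 3 of these 4 members were lower after lapatinib with NT and with FOXA1 siRNA, beside 28.6% and 28.7% of all genes. After FOXA1 siRNA, 2 and 3 of the 4 were higher in DMSO and in lapatinib, beside 21.0% and 22.2% of all genes. With 4 genes, a difference from these shares was not tested.

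Responses to lapatinib were alike in direction under the siRNAs for most members, and for 5 they differed in size. Of the 33, 28 (84.8%) had the same sign with NT and with FOXA1 siRNA, beside 85.7% of all genes, and the log2 fold changes correlated with Pearson's r = 0.898 and Spearman's rho = 0.843 across these 33 genes, which are not independent replicates. These fits share no library, but the replicate numbers and the cell line are common to both. All 18 members called under both siRNAs had the same sign, without a matching count over all genes. For FOXA1 siRNA in DMSO and in lapatinib, 27 of 33 (81.8%) had the same sign beside 77.7% of all genes (r = 0.849, rho = 0.824). Of the members, 12 were called in both, all in the same direction, again without a count over all genes. The counts of 18 and 12 thus describe the members alone.

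The difference itself was tested by an interaction term between siRNA and drug, fitted on all 12 libraries. It was positive for 4 of the 33 members (12.1%) and negative for 1 (3.03%), beside 3.99% and 3.20% of all 14012 genes. The difference of the log2 fold change after lapatinib, FOXA1 siRNA minus NT siRNA, was 0.54 ± 0.14 (adjusted p = 0.0429) for ABCB6 and 0.53 ± 0.14 (adjusted p = 0.0445) for ABCA2, whose decreases were smaller or not called with FOXA1 siRNA. It was 0.35 ± 0.09 (adjusted p = 0.0412) for ABCG1, whose increase was larger, 0.24 ± 0.06 (adjusted p = 0.0335) for ABCC1, and -0.42 ± 0.10 (adjusted p = 0.0216) for ABCA5, whose increase was smaller. In each of the 5, all 3 same-numbered sets of libraries showed the direction. In the fit blocked on replicate number, 8 members were positive and 5 negative, without a matching count over all genes. The 8 also included ABCC2, ABCE1 and ABCF2 (adjusted p = 0.00057, 0.00802 and 0.00428), and the 5 also included ABCA4, ABCC5, ABCC6 and ABCD3 (0.00213, 0.000694, 0.0186 and 0.03).

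**Figure D4:**
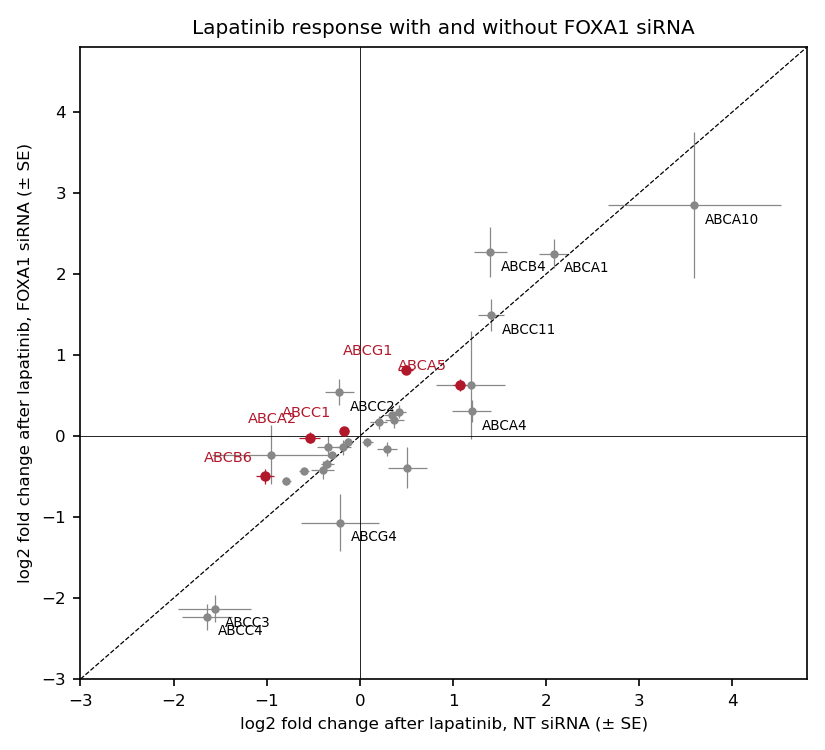
Log2 fold change after lapatinib with NT siRNA (x axis) and with FOXA1 siRNA (y axis) of 31 of the 33 tested ABC members, each ± SE from a fit of 6 libraries; the dashed line marks equal change. Red points are the 5 members whose interaction of siRNA and drug had an adjusted p under 0.05. ABCB6, ABCA2, ABCC1 and ABCG1 lie above the line and ABCA5 below it.

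Genes that work with the family moved as follows. Of the peptide transporter subunits, family proteins under other symbols, TAP1 fell after lapatinib with NT siRNA (log2 fold change -0.41, adjusted p = 0.0325). After lapatinib with FOXA1 siRNA it rose (0.38, adjusted p = 0.012). Its groups overlapped with NT siRNA, and that call was lost without NT siRNA DMSO replicate 1 (-0.37) or 2 (-0.35) or NT siRNA lapatinib replicate 1 (-0.42) or 3 (-0.31). TAP2 fell under each siRNA (-0.99 and -0.24, adjusted p = 8.85e-05 and 0.0282), the second call being lost without FOXA1 siRNA DMSO replicate 1 (-0.23) or 2 (-0.21) or FOXA1 siRNA lapatinib replicate 1 (-0.27) or 3 (-0.16). FOXA1 siRNA lowered TAP1 in DMSO (-0.81, adjusted p = 0.00109) and changed it by -0.02 (adjusted p = 0.908) in lapatinib. It changed TAP2 by -0.15 (adjusted p = 0.189, or 0.0214 in the blocked fit) in DMSO and raised it by 0.60 (adjusted p = 0.00184) in lapatinib. The interaction was positive for TAP1 and TAP2 (0.80 and 0.77, adjusted p = 0.0223 and 0.00722), and was called in 8 and 12 of the 12 fits without 1 library. CFTR had at most 2 counts. Of 5 partner genes, 4 were tested and all 4 rose with lapatinib under each siRNA, beside 29.9% and 28.5% of all genes. They were TAPBP, which tethers TAP, PEX19, which delivers peroxisomal members, LMBRD1, the partner of ABCD4, and KCNJ11, the channel that ABCC8 regulates. For TAPBP the groups overlapped with NT siRNA (0.45, adjusted p = 0.0484), and that call was kept in only 2 of the 6 fits without 1 library. For PEX19 the call with FOXA1 siRNA was kept in 5 of the 6. The 11 genes listed for the liver X receptor (LXR) axis, which controls ABCA1 and ABCG1 transcription, had a median log2 fold change of 0.49 and 0.51. Of these, 7 rose with lapatinib under each siRNA, beside the same 29.9% and 28.5% of all genes. Among them were NR1H3, which encodes LXR alpha (1.02 ± 0.16 and 0.86 ± 0.15), and the LXR target MYLIP (0.94 ± 0.09 and 0.64 ± 0.08), while SREBF1, another target, was not called (-0.08 ± 0.13 and -0.01 ± 0.10). After FOXA1 siRNA, 3 of the 11 rose in DMSO, beside 21.0% of all genes. In lapatinib, 4 rose and 2 fell, beside 22.2% and 21.8% of all genes. Of 7 regulators of xenobiotic response, 6 were tested. AHR, NFE2L2, KEAP1 and PPARA (66.7%) rose with lapatinib under each siRNA, beside 29.9% and 28.5% of all genes. PPARG (16.7%) fell under each, beside 28.6% and 28.7%. AHR and NFE2L2 (33.3%) rose with FOXA1 siRNA under each drug, beside 21.0% and 22.2%. With 6 genes, a difference from these shares was not tested.

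The 13 members too low to test were ABCA6, ABCA8, ABCA9, ABCA13, ABCB1, ABCB5, ABCB11, ABCC9, ABCC12, ABCC13, ABCD2, ABCG5 and ABCG8. ABCB5 had 0 counts in all 12 libraries, and ABCC12 reached the most, 7 counts, in a library with NT siRNA and lapatinib. ABCC12 is the neighbour of ABCC11, 8825 bases away on chromosome 16. ABCA6, ABCA8 and ABCA9 lie in 1 cluster with ABCA10 and ABCA5 on chromosome 17, and had at most 2 counts, whereas ABCA5 had at least 710.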

How the data were processed

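The authors deposited, for each of the 12 libraries, an expected count per gene (an estimated number of reads that need not be whole), a TPM and a transcript length. The study's methods name STAR, with hg38, and Salmon, whereas the file columns carry RSEM names, and which of these quantified the genes was not settled here. The submitters' processing notes list RSEM, DESeq2 1.12.3 and R 3.2.2. How strand was treated in counting is not given in the sources used here. The authors' normalized values were not used. The methods give 24 h between transfection and drug and the labels 48 h. The labels do not say that replicates were separate cultures, so p-values measure the spread between these samples, which may be technical.

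Expected counts were rounded. Genes reaching 10 counts in any of the 12 libraries were tested with edgeR 4.0.16 in R 4.3.3 (TMM, quasi-likelihood test, Benjamini-Hochberg over all genes tested), 6 libraries for each pair of groups and 12 for the interaction. The SE was the log2 fold change divided by the root of F. A call needed an adjusted p under 0.05. TPM was used only for levels. Tables and plots were made with Python 3.11.15, pandas 2.3.3 and matplotlib 3.10.9, and the fits were tested on simulated counts. Alternatives were DESeq2 1.42.0, upper-quartile and RLE normalization, 2 other count filters, stricter calls, 1 model of all samples, a replicate block and leaving out each library. The labels number the replicates 1 to 3 without saying what the numbers mean. Same-numbered libraries deviated together from their group means in all 18 pairs (correlation 0.267 to 0.696 over 10812 genes). The mean of -0.199 for different numbers adds little, since deviations within a group sum to 0. In every group, replicate 2 differed more from replicates 1 and 3 (chi-square per degree of freedom 12.1 to 17.6) than these did from each other (3.62 to 5.68). A pairing by number was therefore taken as possible, and the block was kept as an alternative. Calls come from the fits without the block, and the blocked value stands beside a result whose call it changes.

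Of the 33 tested members, 2 are included in counts and sums but not reported here individually. The members and lists were chosen with earlier results of these data known. Members were given in all 12 libraries when called with an absolute log2 fold change of 1 or more, when their interaction was called, or for ABCB1, ABCC1, ABCG2, ABCA1 and ABCG1 whatever the result. Intervals and limits from counts cover counting error only, since amplified reads are not independent molecules. Gene positions and upstream bases came from RefSeq (GRCh38.p14), matched by symbol and gene ID.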

Additional observations from a re-analysis of the deposited data

Results flagged for a closer look

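Responses to lapatinib differed between the siRNAs, by the interaction term of edgeR's quasi-likelihood test over all 12 libraries, for 5 members. The difference in log2 fold change, FOXA1 siRNA minus NT siRNA, was 0.54 ± 0.14 (adjusted p = 0.0429) for ABCB6, 0.53 ± 0.14 (adjusted p = 0.0445) for ABCA2, 0.35 ± 0.09 (adjusted p = 0.0412) for ABCG1, 0.24 ± 0.06 (adjusted p = 0.0335) for ABCC1 and -0.42 ± 0.10 (adjusted p = 0.0216) for ABCA5. ABCA5 kept its call in 7 of the 12 fits without 1 library, ABCC1 in 5, ABCB6 in 3, and ABCA2 and ABCG1 in 2 each, with adjusted p reaching 0.0601, 0.0892, 0.107, 0.11 and 0.0984. All 5 passed in the fit blocked on replicate number. The cause of these differences was not tested.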

How the results depend on the processing

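The members' 86 called changes kept their direction in all 1135 alternative fits in which they could be recomputed, and 65 of them kept the call in every one. The other 21 lost it in at least 1 fit, in 92 fits without 1 library and in 11 other fits. Requiring an absolute log2 fold change of 1 or more left 7 members higher and 3 lower for lapatinib with NT siRNA, 4 and 3 with FOXA1 siRNA, 2 and 2 for FOXA1 siRNA in DMSO and 3 and 4 in lapatinib. An adjusted p under 0.01 left 4 lower for FOXA1 siRNA in DMSO and 0 of either sign for the interaction. With the replicate block, 15 were lower for FOXA1 siRNA in lapatinib, and the interaction had 8 positive and 5 negative members, and DESeq2 gave the interaction 7 positive and 2 negative. Without 1 library in turn, the interaction had 0 to 4 positive and 0 to 2 negative members. The block added calls for 33 changes, given where they occur for the members described, and took none away. Depth limits the 13 members under 10 counts, and ABCA10, ABCC8, ABCG2 and ABCG4. The fits share 3 replicates per group and 1 cell line, and exact permutation of 3 against 3 libraries cannot give a p below 0.1.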
